A study of Homo sapiens with 2 samples.

Results

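The STEAP family and the transferrin route of iron uptake were examined in drug-resistant ovarian cancer cells through 7 genes, STEAP1, STEAP2, STEAP3, STEAP4, TFRC, SLC11A2 and SLC40A1. The members were taken as all probes carrying one of these names in the array files, which gave 13 of 41000 probes and 7 of 30238 gene names. These genes were chosen on their log2 ratios in the same arrays, so the values below describe them and no p value is given for them. A2780 is a human ovarian carcinoma line. A2780CBN was derived from it by stepwise selection with carboplatin up to 22.2 µM, and A2780CBNDXL by selection with carboplatin and docetaxel together. For the dual line the sample labels give 1 dose for the combination and the study's methods give other doses, with docetaxel far below carboplatin, so no dose is stated here. Selection used small dose steps so that a population and not a single clone was kept, and each line was compared with a control, A2780CC, that was cultured alongside it without drug. Each line gave 1 sample, a pool of RNA from 3 isolations, which was hybridized together with its control to 4 arrays. Of these, arrays 1 and 3 had forward and arrays 2 and 4 reverse dye labelling.

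Cells take up most of their iron as ferric iron bound to transferrin, which the transferrin receptor carries into endosomes. There a STEAP protein reduces the iron to the ferrous form, a divalent metal transporter moves it into the cytosol, and ferroportin is the exporter that lets it leave the cell. STEAP proteins are six-transmembrane proteins of the plasma membrane and endosomes that reduce iron and copper, and STEAP1 and STEAP2 were first described as surface antigens of prostate tumours. Iron regulatory proteins bind stem-loops in the transcripts of the receptor, of ferritin, of ferroportin and of one form of the divalent metal transporter, and adjust their stability or translation to the iron supply.

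The 4 arrays of a line repeat 1 RNA sample. Each SD therefore holds the error of labelling and hybridization alone, and no p value across cultures could be given. Fewer cells of a kind and less RNA per cell cannot be told apart in such a sample. The share of spots well above background in a channel was 59.8 to 67.5%. The spike-in CV was 3.66 to 5.06% on 7 arrays and reached 18.2 and 19.6% in the channels of array 1 of A2780CBNDXL. Ratios over all genes differed by labelling direction. In A2780CBN arrays of the same labelling correlated at 0.87 and 0.85 (Pearson r) and those of opposite labelling at 0.58 to 0.61. In A2780CBNDXL the values were 0.87 and 0.90 for the same and 0.73 to 0.75 for opposite labelling. The epithelial keratins KRT8 and KRT18 were well above background on all arrays in both channels. MUC16, CDH1, the leukocyte gene PTPRC and the endothelial gene PECAM1 were above background on none of them. Several of these markers differed between line and control. EPCAM, an epithelial adhesion gene, had log2 ratios of 2.07 ± 0.30 in A2780CBN and 1.67 ± 0.24 in A2780CBNDXL and was changed in both. KRT18 at 1.05 ± 0.16 and the mesenchymal gene VIM at 1.08 ± 0.67 were changed in A2780CBN, and the collagen gene COL1A1 at 2.04 ± 0.20 in A2780CBNDXL. COL1A1 was also higher in A2780CBN, at 0.99 ± 0.08, just under the limit of 1 given below. KRT8 was changed in neither. The leukocyte gene CD14 was well above background on all 4 arrays of each line and its control, with log2 ratios of -0.59 ± 0.19 and -0.68 ± 0.25, as was the globin gene HBA1. The part of these markers in the results was not tested. In this text a gene counts as changed when its mean log2 ratio of line over control was at least 1 in size, the 4 arrays had 1 sign, and a channel was well above background on all of them. A gene was represented by its brightest probe.

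In A2780CBN 1 of the 6 members with a usable signal was changed, TFRC, which was lower. In A2780CBNDXL 4 of 6 were changed, with STEAP1 and STEAP2 higher and STEAP3 and TFRC lower than the control. Over all genes 12.6% were changed in A2780CBN, with 1436 of 17951 genes higher and 4.55% lower, and 16.9% in A2780CBNDXL, 7.70% higher and 9.21% lower. Since the members were picked on these ratios, nothing is read from their shares. The median log2 ratio of the 6 members was -0.04 in A2780CBN and 0.07 in A2780CBNDXL, beside -0.06 and 0.04 over all genes. Their median size, without regard to sign, was 0.51 and 1.33, beside 0.33 and 0.39.

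**Figure D1:**
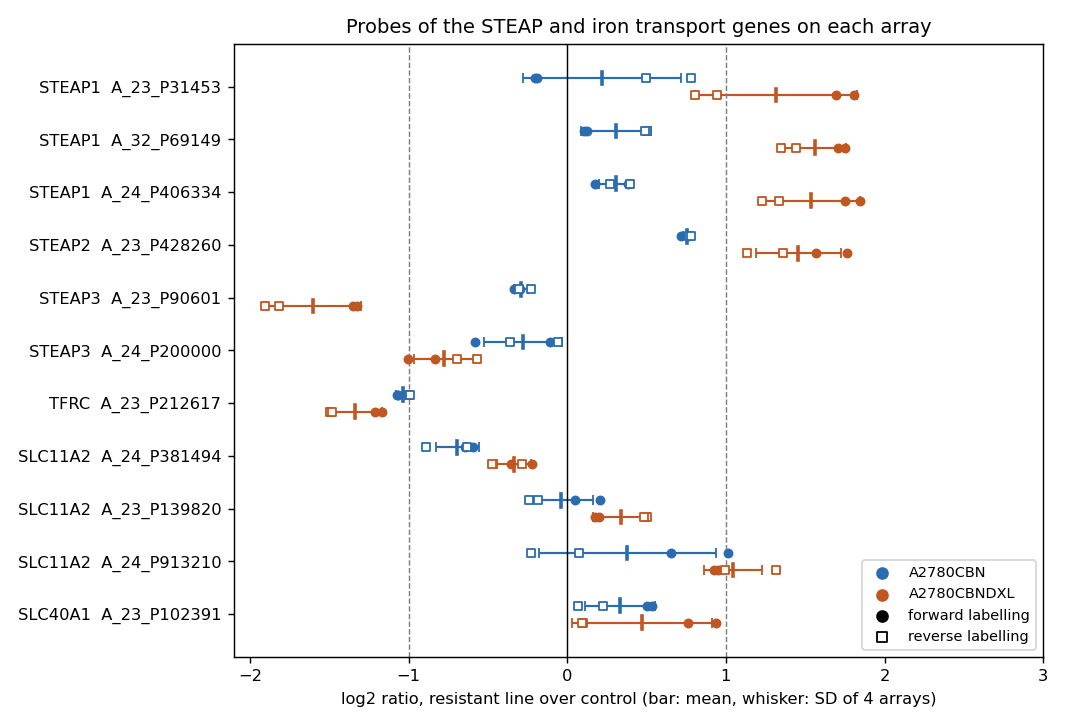
Log2 ratio of resistant line over control on each array for the 11 probes of the 6 members with a usable signal. Filled circles are forward and open squares reverse labelled arrays, bars and whiskers give the mean and SD of 4 arrays, and dashed lines mark 2-fold. In A2780CBNDXL the 3 STEAP1 probes and STEAP2 lie to the right and STEAP3 and TFRC to the left, while in A2780CBN TFRC alone reaches the line at -1.

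TFRC encodes the transferrin receptor, the entry point of transferrin-bound iron. Its probe, A_23_P212617, lies on chromosome 3 of NCBI36 from 197260990 to 197261049 on the minus strand and was spotted 10 times on each array. In A2780CBN the processed intensities of the line were 9218, 8616, 7219 and 7480 on arrays 1 to 4, and those of the control were 19405, 17159, 15126 and 14895. Every control value lay above every line value. The log2 ratio was -1.03 ± 0.04 (SD of 4 arrays), a level 2.05-fold below that of the control. In A2780CBNDXL the line gave 5858, 7213, 5725 and 5471 and the control 13184, 20322, 13236 and 15316, again without overlap, and the log2 ratio was -1.34 ± 0.17, or 2.53-fold lower. Single arrays of A2780CBN ranged from -1.07 to -0.99 and so straddled the 2-fold limit, and with the A2780CC channel of the matched A2780CBNDXL arrays as denominator the mean was -0.77 and the gene was not called.

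The 10 spots of TFRC gave a direct view of the error within an array. On 7 of the 8 arrays the spots, outlier spots included, of a channel varied by 2.93 to 6.79%. On array 1 of A2780CBNDXL, the array with the variable spike-in controls, they varied by 22.4% in the line and 26.7% in the control channel, and the control spots ran from 10218 to 18785. The ratio was steadier than the signal there, since the log2 ratios of the 10 spots on that array had an SD of 0.08 and lay between -1.32 and -1.07. Across all 80 spots of the 8 arrays the log2 ratio ran from -1.60 to -0.89, so no spot showed more TFRC signal in a resistant line than in its control.

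**Figure D2:**
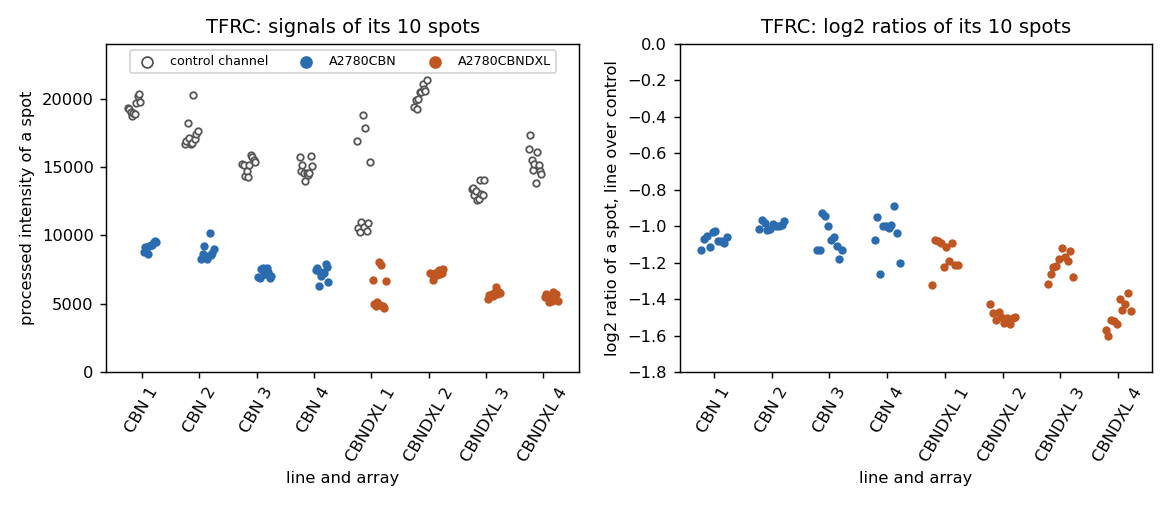
Processed intensity (left) and log2 ratio of line over control (right) of each of the 10 TFRC spots on every array. Control spots are open and line spots filled; on array 1 of A2780CBNDXL the control spots spread from 10218 to 18785 while the ratios stay between -1.32 and -1.07.

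STEAP3 is the reductase of endosomes that carry transferrin. Its brighter probe, A_23_P90601, on chromosome 2 from 119739468 to 119739527, gave line intensities of 280, 204, 249 and 184 in A2780CBNDXL against control intensities of 715, 717, 625 and 689. All line values lay below all control values, and the log2 ratio was -1.60 ± 0.30, or 3.03-fold lower, the largest change in size among the members. That ratio stood at the 4.98th percentile of all genes with a usable signal. By labelling direction it was -1.34 on forward and -1.86 on reverse arrays. In the same line TFRC gave -1.19 forward and -1.49 reverse, and STEAP2 gave 1.66 and 1.25. In A2780CBN the line gave 690, 650, 667 and 650 and the control 871, 762, 819 and 802, a log2 ratio of -0.29 ± 0.05 that stayed below the 2-fold limit but had the same sign on every array. The dimmer probe, A_24_P200000, on chromosome 2 from 119728834 to 119728893, gave -0.77 ± 0.19 in A2780CBNDXL and -0.28 ± 0.24 in A2780CBN. Both probes were thus lower on all arrays of both lines, and the size in the dual line differed between them. With the A2780CC channel of the A2780CBNDXL arrays as denominator, the brighter probe gave 0.04 in A2780CBN, so its direction there depended on the control used.

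STEAP1 lacks the reductase domain of its relatives and is known as a tumour surface antigen. It was measured by 3 probes on the plus strand of chromosome 7. Probe A_23_P31453 lies from 89631940 to 89631999, A_24_P406334 from 89628467 to 89628526 and A_32_P69149 from 89628505 to 89628564. The last 2 are shown because their annotated positions share 22 bases, from 89628505 to 89628526, in which the probe sequences of the array files differ at 2 positions, given in capitals.
A_24_P406334: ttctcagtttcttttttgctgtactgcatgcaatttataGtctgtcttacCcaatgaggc
A_32_P69149: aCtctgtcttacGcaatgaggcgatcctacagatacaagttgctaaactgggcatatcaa
Counted from the first shared base, with the A_24_P406334 base first, the differences are G2C and C13G. These probes share bases and are therefore not independent of each other. STEAP1 also has a near-identical relative, STEAP1B, which has no probe under that name among those analysed here, and signal of one gene on probes of the other cannot be told apart.

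All 3 STEAP1 probes were higher in A2780CBNDXL. The overlapping probes gave log2 ratios of 1.56 ± 0.20 for A_32_P69149 and 1.54 ± 0.30 for A_24_P406334, or 2.95 and 2.90-fold, and the brightest probe gave 1.31 ± 0.51, or 2.49-fold. On A_32_P69149 the dual line had 741, 876, 807 and 661 and its control 227, 345, 240 and 243, with no overlap. On A_23_P31453 the line had 821, 1007, 1643 and 1720 and the control 234, 522, 507 and 984, so that the highest control value exceeded the lowest line value although the line was higher on each array. In A2780CBN the same 3 probes gave 0.31 ± 0.22, 0.31 ± 0.10 and 0.22 ± 0.50, none of which met the 2-fold rule. The last of these differed between labelling directions, with -0.20 on forward and 0.64 on reverse labelled arrays. In A2780CBNDXL a gap of like size ran in the opposite direction, with 1.75 forward and 0.88 reverse.

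STEAP2 is a metalloreductase of the plasma membrane and Golgi. Its single probe, A_23_P428260, lies on chromosome 7 from 89704473 to 89704532. In A2780CBNDXL the line gave 685, 575, 506 and 495 and the control 231, 262, 149 and 193, which did not overlap, and the log2 ratio was 1.46 ± 0.27, or 2.74-fold higher. In A2780CBN the line gave 338, 274, 217 and 261 and the control 199, 161, 132 and 152, and the log2 ratio was 0.76 ± 0.03, or 1.69-fold. This value lay below the 2-fold limit but repeated closely, from 0.72 to 0.78 on single arrays. STEAP2 was therefore on the higher side in both lines on all 8 arrays.

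STEAP4, a metalloreductase found in fat tissue, could not be measured. Neither of its probes was well above background on any array of A2780CBN, where processed intensities lay between 4.05 and 6.58. In A2780CBNDXL probe A_32_P128980 was above background on array 3 alone, at 32.1 in the line and 27.6 in the control, and probe A_24_P351906 on none. No ratio is given for it, and a low level cannot be told apart from none.

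**Figure D3:**
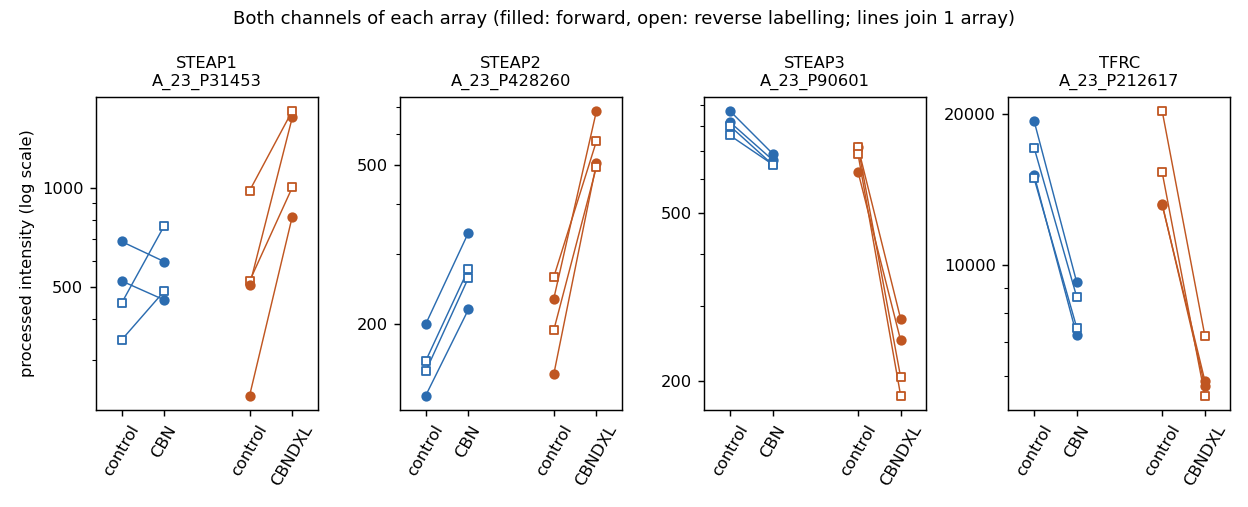
Processed intensity (log scale) of the probe standing for STEAP1, STEAP2, STEAP3 and TFRC in the control and line channel of each array, with a line joining the channels of 1 array. In A2780CBNDXL STEAP1 and STEAP2 go up and STEAP3 and TFRC go down on each array, while in A2780CBN STEAP1 goes up on reverse and down on forward labelled arrays.

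SLC11A2 encodes the divalent metal transporter that moves ferrous iron out of endosomes, and its transcripts end in different exons, with or without an iron-responsive element. It was measured by 3 probes on the minus strand of chromosome 12, whose bases are shown because the probes gave different answers. A_23_P139820, annotated to NM_000617, spans the positions 49668451 to 49670869, more than its own length, so its bases are split on the genome. A_24_P381494, also annotated to NM_000617, lies from 49666566 to 49666625. A_24_P913210 lies from 49660813 to 49660872 and is annotated to AF064484, which the array file describes as the non-IRE form. The first is given whole and the other probes by their first 30 bases.
A_23_P139820: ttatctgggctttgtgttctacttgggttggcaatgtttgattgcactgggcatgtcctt
A_24_P381494: aaattctttataaagatgatatggtaacat
A_24_P913210: taatatttggatagcccgcccatgtatttt

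In A2780CBNDXL the probe of the non-IRE form was higher than the control, with line intensities of 449, 483, 331 and 281 against 236, 194, 172 and 141, a log2 ratio of 1.05 ± 0.18 and 2.06-fold. On the same arrays A_24_P381494 had 1262, 1484, 1215 and 1085 in the line and 1615, 1806, 1420 and 1509 in the control, a log2 ratio of -0.33 ± 0.11. The split probe gave 0.34 ± 0.18. Each probe kept its sign on all 4 arrays, so the difference between the probes was larger than the spread between arrays. In A2780CBN the order was the same, with 0.38 ± 0.56 for the non-IRE probe, -0.04 ± 0.21 for the split probe and -0.69 ± 0.13 for A_24_P381494. There the non-IRE probe changed sign between arrays, from -0.23 to 1.01, with 0.83 on forward and -0.07 on reverse arrays. Under normexp background correction with loess normalization the non-IRE probe gave 0.49 with an offset of 50 and 0.74 with an offset of 1 in A2780CBNDXL, both under the 2-fold limit. The gene as a whole, by its brightest probe A_24_P381494, was changed in neither line.

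SLC40A1 encodes ferroportin, the exporter of iron. Its probe, A_23_P102391, on chromosome 2 from 190133995 to 190134054, gave 0.33 ± 0.22 in A2780CBN and 0.47 ± 0.44 in A2780CBNDXL. Ratios were above 0 on all 8 arrays. In the dual line they were 0.94 and 0.76 on forward and 0.10 and 0.09 on reverse arrays, so that the mean rests largely on one labelling direction. SLC40A1 met the 2-fold rule in neither line.

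The lines were set beside each other on matched arrays of the same slide and labelling, after the channels had been scaled between arrays. The ratio of STEAP3 was lower in A2780CBNDXL than in A2780CBN by 1.31 ± 0.33 on the log2 scale (SD of 4 matched pairs), and the ratio of STEAP1 was higher by 1.25 ± 0.42 on A_32_P69149 and by 1.09 ± 1.00 on the brightest probe. Between the line channels alone STEAP3 fell by 1.64 ± 0.42 and TFRC by 0.57 ± 0.22, while STEAP1 and STEAP2 were higher by 1.04 ± 0.25 and 1.00 ± 0.23. Each of these kept its sign in all 4 pairs. Line channels differed by 2-fold or more with 1 sign in all pairs for 14% of 16132 genes.

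The control channels both bear the name A2780CC, while the study's methods state that each resistant line had its own co-cultured control. Taking the A2780CC channel of the other line's arrays as denominator, as above for TFRC and STEAP3, therefore sets a line against a control not cultured alongside it. The control channels were not identical for every member. TFRC was lower by 0.26 ± 0.12 and STEAP3 by 0.33 ± 0.18 in the control beside A2780CBNDXL, each in all 4 pairs, and STEAP2 was higher there by 0.30 ± 0.18. For STEAP1 the 3 probes gave -0.05 ± 0.83, -0.23 ± 0.24 and -0.25 ± 0.11. Control channels differed by 2-fold or more for 3.95% of genes, none of them a member. For STEAP1, STEAP2 and STEAP3 the line channels differed by more than the control channels did, on each of their brightest probes. For TFRC the line channels differed by 0.57 in size and the control channels by 0.26.

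Promoter sequences were looked up for the 4 changed genes, since STEAP1 and STEAP2 are neighbours that were higher together and STEAP3 and TFRC were lower together in the dual line. The 250 bases before the RefSeq start on GRCh38.p14 are shown, with matches to any of 5 motifs on either strand in capitals, and for STEAP2 the first of 2 listed starts was taken. The motifs were the GC box, spelled GGGCGG, the TATA box, spelled TATAAA, and the box spelled CCAAT. The core of hypoxia response elements, spelled ACGTG, and the core of antioxidant response elements, spelled TGACNNNGC, were also searched, and none of the matches overlapped. The STEAP1 bases lie at chr7:90154219-90154468 on the plus strand, those of STEAP2 at chr7:90211490-90211739 on the plus strand, those of STEAP3 at chr2:119223584-119223833 on the plus strand and those of TFRC at chr3:196082091-196082340 on the minus strand.
STEAP1: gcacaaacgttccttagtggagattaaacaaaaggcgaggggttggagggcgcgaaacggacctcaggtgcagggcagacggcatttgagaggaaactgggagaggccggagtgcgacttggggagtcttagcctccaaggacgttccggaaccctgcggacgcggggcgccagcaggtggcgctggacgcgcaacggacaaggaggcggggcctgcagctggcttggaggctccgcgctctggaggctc
STEAP2: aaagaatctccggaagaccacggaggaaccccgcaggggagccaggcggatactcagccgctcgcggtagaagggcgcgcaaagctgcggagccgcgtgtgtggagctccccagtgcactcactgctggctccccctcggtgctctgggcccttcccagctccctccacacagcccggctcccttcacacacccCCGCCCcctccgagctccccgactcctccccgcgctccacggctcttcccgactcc
STEAP3: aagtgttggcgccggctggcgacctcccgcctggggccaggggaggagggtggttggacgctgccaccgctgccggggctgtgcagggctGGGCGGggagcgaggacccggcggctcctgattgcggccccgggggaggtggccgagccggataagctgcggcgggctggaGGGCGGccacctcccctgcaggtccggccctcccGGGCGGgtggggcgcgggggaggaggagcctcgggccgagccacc
TFRC: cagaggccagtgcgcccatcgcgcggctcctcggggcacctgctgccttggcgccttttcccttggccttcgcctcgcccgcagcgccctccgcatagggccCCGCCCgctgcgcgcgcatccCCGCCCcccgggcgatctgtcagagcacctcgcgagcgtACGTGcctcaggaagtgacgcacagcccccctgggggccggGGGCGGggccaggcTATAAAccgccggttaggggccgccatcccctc

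The starts of STEAP1 and STEAP2 are 57.3 kb apart and both genes read in the plus direction. The GC box occurred 3 times in TFRC and in STEAP3 and 1 time in STEAP2, and 42.6% of 35116 promoters of this length held it. TFRC also held TATAAA, at -33 to -28 from the start, and ACGTG, at -88 to -84, which 11% and 18.5% of promoters held. The STEAP1 window held none of the 5 motifs. CCAAT and TGACNNNGC, present in 32.0% and 10.9% of promoters, occurred in none of the 4 windows shown. The STEAP1 and STEAP1B windows were 97.6% identical, with 6 bases that differed. These matches describe the letters only.

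STEAP1, STEAP2 and STEAP4 lie on the same arm of chromosome 7 as ABCB1 and ABCB4, drug efflux genes. In A2780CBNDXL ABCB1 was at least 24.7-fold and ABCB4 at least 5.62-fold higher than the control, whose channel was not above background on any array. Such a bound sets the bright channel against the dimmest probe signal that still counted as well above background on an array. In A2780CBN both genes were below background in both channels. The ABCB1 probe begins at 86973249 and the STEAP1 probe at 89631940. STEAP4, which lies between them, was near background in both lines.

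Within 500 kb of STEAP1 and STEAP2 lay 7 other named or unnamed transcripts, of which 2 had a usable signal and none was changed in either line. GTPBP10, a GTPase gene, gave -0.21 ± 0.39 in A2780CBN and -0.35 ± 0.22 in A2780CBNDXL. CLDN12, a claudin, gave -0.10 ± 0.43 and -0.20 ± 0.09. Its dimmer probe gave 0.16 in A2780CBN and -0.70 in A2780CBNDXL. The higher signal of STEAP1 and STEAP2 in the dual line was therefore not shared by these 2 neighbours, and the others could not be judged. Around STEAP4 there were 10 such transcripts, of which 6 were usable in A2780CBN and 5 in A2780CBNDXL, and the one changed gene was ADAM22, at 1.92 ± 0.34 in A2780CBN and -0.87 ± 0.41 in A2780CBNDXL. SLC25A40 gave -0.49 ± 0.04 in A2780CBNDXL and no clear sign in A2780CBN, where its SD was 0.49 and its 3 probes ran from -0.66 to 0.14. DBF4 gave -0.77 ± 0.15 in A2780CBN and -0.82 ± 0.26 in A2780CBNDXL. Its dimmer probe gave -1.35 in A2780CBN, beyond 2-fold, and -0.53 in A2780CBNDXL. RUNDC3B, next to SLC25A40, was above background on 3 of 4 line arrays in A2780CBNDXL and on none of its control.

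**Figure D4:**
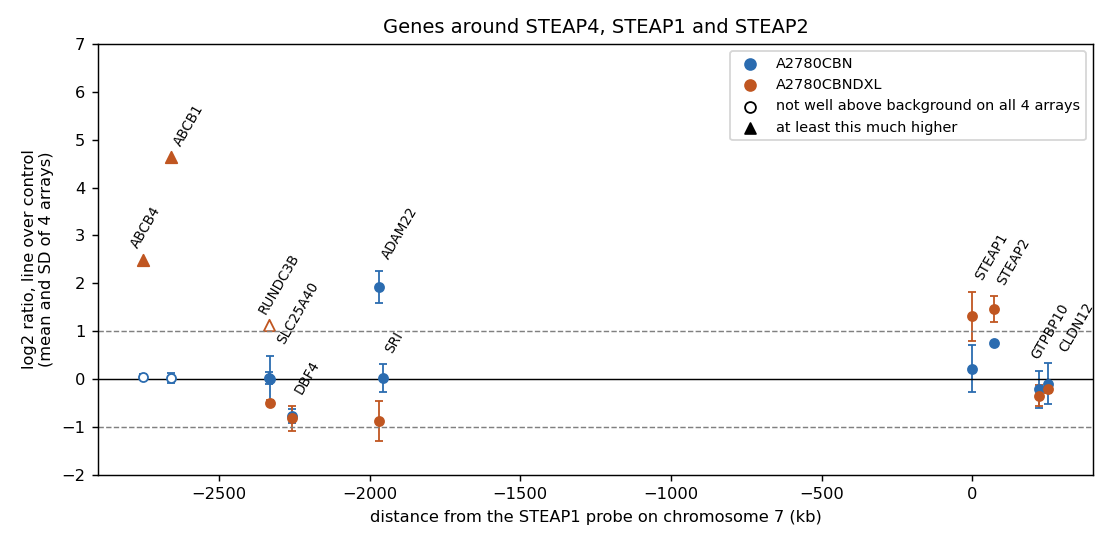
Log2 ratio of line over control against distance from the STEAP1 probe on chromosome 7. Drawn are ABCB1, ABCB4, RUNDC3B and the named genes with a usable signal, among them SRI in A2780CBN, and STEAP4 is not drawn. Points and whiskers are the mean and SD of 4 arrays, triangles are lower bounds, open symbols were not well above background on all 4 arrays, and dashed lines mark 2-fold. Each gene is drawn by its brightest probe. STEAP1 and STEAP2 stand above 1 in A2780CBNDXL, while GTPBP10 and CLDN12 beside them lie slightly below 0.

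The wider iron pathway was followed with a list of 71 other genes on the array. In A2780CBN 57 were usable and 7 were changed, 4 higher and 3 lower, which is 12.3% beside 12.6% of all genes. In A2780CBNDXL 58 were usable and 12 were changed, 3 higher and 9 lower, or 20.7% beside 16.9%. Their median log2 ratios were -0.01 and -0.10. In A2780CBN the lower calls, CP, SLC39A8 and HIF1A, depended on the processing. Under normexp with loess 2 genes were higher and 0 lower with an offset of 50, and 4 were higher and 0 lower with an offset of 1.

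Among 15 genes of uptake and reduction at the membrane, CYBRD1, a ferric reductase of the duodenal surface, was higher in A2780CBN at 1.22 ± 0.08 and gave 0.32 ± 0.31 in A2780CBNDXL. Its dimmer probe gave 0.81 ± 0.06 in A2780CBN and was not called. SLC39A14, a zinc and iron importer, was lower in A2780CBNDXL at -1.37 ± 0.06, with its dimmer probes at -1.12 ± 0.23 and -1.28 ± 0.80, and gave -0.36 ± 0.15 in A2780CBN. MFI2, the melanotransferrin gene, was higher in the dual line at 1.07 ± 0.27, and EXOC6, a component of the exocyst that serves transferrin recycling, was lower at -1.39 ± 0.10. SLC39A8, a related metal importer, was called lower in A2780CBN at -1.03 ± 0.62, a call lost under normexp with loess. Transferrin itself, TF, had no usable signal in either line.

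Of 5 genes grouped as export, ferroxidases and haem carriers, 4 were changed in A2780CBNDXL, beside 16.9% of all genes, and 1 in A2780CBN, beside 12.6%. HEPH, a ferroxidase that works with ferroportin, was higher in the dual line at 1.61 ± 0.35. Its dimmer probe was also called higher there, at 4.86 ± 0.50, so the probes shared the direction but differed widely in size. The ferroxidase ceruloplasmin, CP, was not above background in either resistant line and was at least 4.75-fold lower in A2780CBNDXL and at least 1.93-fold lower in A2780CBN. The haem carriers FLVCR1 and SLC48A1 were lower in the dual line, at -1.22 ± 0.07 and -1.92 ± 0.04. The dimmer probe of FLVCR1 was also called, while that of SLC48A1 gave -0.88 ± 0.11 and was not. SLC40A1, the export channel itself, met the limit in neither line, as given above.

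In storage and release, the ferritin chains were not changed. FTL gave 0.52 ± 0.29 in A2780CBN and -0.35 ± 0.15 in A2780CBNDXL, and FTH1 gave 0.49 ± 0.39 in the first and -0.51 ± 0.10 in the second, where it was measured on 3 arrays and so was not eligible. NCOA4, the receptor that delivers ferritin for breakdown, was higher in A2780CBN at 1.22 ± 0.21 and gave 0.72 ± 0.45 in A2780CBNDXL. HMOX1, which releases iron from haem, was lower in the dual line at -3.13 ± 0.20 and gave 0.88 ± 0.49 in A2780CBN. BLVRA, which acts on the product of haem breakdown, was higher in the dual line at 1.60 ± 0.08. 

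Of the regulators, ACO1 and IREB2 encode the iron regulatory proteins and were changed in neither line. ACO1 gave 0.59 ± 0.12 in A2780CBN and -0.31 ± 0.06 in A2780CBNDXL, and IREB2 gave -0.34 ± 0.13 and -0.36 ± 0.28. HIF1A, a hypoxia-inducible factor, was called lower in both, at -1.08 ± 0.20 and -1.08 ± 0.53, and the call in A2780CBN was lost under normexp with loess. EPAS1, its relative, was at least 14.8-fold higher in A2780CBN by its brighter probe, while its other probe had no usable signal. In the mitochondrial group FDXR, ferredoxin reductase, was higher in A2780CBN at 1.83 ± 0.30, and ABCB6, a porphyrin transporter, and CPOX, an enzyme of haem synthesis, were lower in A2780CBNDXL at -1.28 ± 0.18 and -1.02 ± 0.16. The dimmer probe of ABCB6 gave -0.94 ± 0.12 and was not called.

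**Figure D5:**
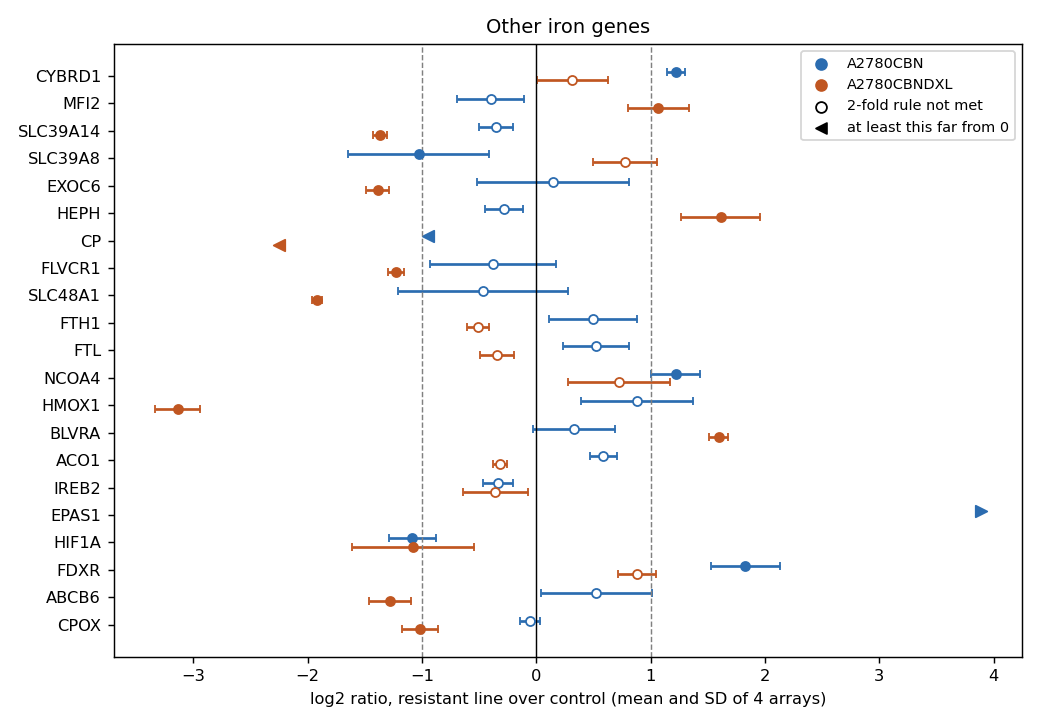
Log2 ratio of line over control for the iron genes changed in either line and for FTH1, FTL, ACO1 and IREB2. Points and whiskers are the mean and SD of 4 arrays (3 for FTH1 in A2780CBNDXL), filled points met the 2-fold rule and arrowheads are bounds for a channel below background; SLC39A14, EXOC6, FLVCR1, SLC48A1, HMOX1, ABCB6 and CPOX lie to the left of -1 in A2780CBNDXL and not in A2780CBN, and HIF1A does in both. The bound of CP lies beyond -1 in A2780CBNDXL and just inside it in A2780CBN, and EPAS1 in A2780CBNDXL, below background in the line channel, is not drawn.

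For the member with the largest changed ratio in each line, the genes with the most similar values were found by Euclidean distance over the log2 ratios of 8 arrays among 16132 genes usable in both lines. For TFRC these were DIMT1L, NR4A1 and PIGA, at distances of 0.22, 0.33 and 0.47. DIMT1L, an rRNA methyltransferase, gave -1.01 ± 0.11 in A2780CBN and -1.42 ± 0.15 in A2780CBNDXL. For STEAP3 they were CCNJ, TMEFF1 and FAM162A, at distances of 0.34, 0.39 and 0.43. FAM162A gave -0.27 ± 0.17 and -1.76 ± 0.35. A small distance says that the ratios are alike on these arrays and nothing on shared control.

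The raw signals were also corrected by normexp with loess. With an offset of 50, TFRC at -1.34 was the 1 member that remained changed in A2780CBNDXL by its brightest probe. STEAP1 gave 0.99, STEAP2 0.82 and STEAP3 -0.96. Of the dimmer STEAP1 probes, A_32_P69149 was still called at 1.04 and A_24_P406334 at 0.998 was not. With an offset of 1 all 4 members remained changed in A2780CBNDXL, 2 higher and 2 lower. In that line these 4 kept their signs under each of the alternatives that were run.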

How the data were processed

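Expression was measured on 8 two-colour Agilent arrays, 4 of A2780CBN and 4 of A2780CBNDXL, each against A2780CC. The authors deposited Feature Extraction output, made with version 10.7.1.1 (slide 1) or version 10.7.3.1 (slide 2), with probe coordinates on NCBI36. The deposited processed intensity of each channel had been background-subtracted and normalized for dye by the authors, and the deposited raw intensity and background were used for alternatives only. Forward arrays carry the control in Cy3, per the labels. The dye entries of the reverse arrays repeat those of the forward ones, and these arrays were turned over as their name states, so the sign rests on the forward labels. The mean log2 ratio of the forward arrays and that of the reverse arrays were averaged with equal weight, without spots marked as outliers. No spot was saturated. Channels were scaled between arrays by Aquantile for bounds and for comparisons between lines. The number of arrays limits the precision. Members, gene lists and the rule for naming genes were chosen with earlier results of these data known. The genes named are all members, iron genes changed in either line with 9 fixed ones, names within 500 kb of STEAP1, STEAP2 or STEAP4 with ABCB1 and ABCB4, and the 3 nearest genes by distance; of the neighbours without a usable signal only counts are given. Motifs were picked after the data were seen. The 2-fold rule and the ANOVA were tested on simulated data. Gene names are those of the files, and 71 of 75 iron names were on the array. Promoters are from RefSeq (GRCh38.p14), matched by symbol for all 7 members. The A2780DXL arrays were not analysed here. Ratios and counts were computed in Python 3.11.15 with pandas 2.3.3 and numpy 2.4.6, scipy 1.17.1 gave the ANOVA of the methods, which was run over all genes, members included, as an alternative only, normalization used limma 3.58.1 under R 4.3.3, and plots were drawn with matplotlib 3.10.9.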

Additional observations from a re-analysis of the deposited data

Results flagged for a closer look

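No member stood out by these criteria. In 8 other genes named in the report every array of one line moved opposite to every array of the other, and these differences between the lines were not tested. How many of all genes did so is not given here, so nothing is read from the count. The log2 ratio in A2780CBNDXL minus that in A2780CBN was 1.47 for MFI2, 1.80 for SLC39A8 and 1.89 for HEPH, which were lower than the control in A2780CBN and higher in A2780CBNDXL. It was -0.87 for FTL, -4.02 for HMOX1, -0.90 for ACO1, -1.802 for ABCB6 and -2.79 for ADAM22, with ratios above 0 in A2780CBN and below 0 in A2780CBNDXL. All of these are values of the brightest probe. The dimmer probes of MFI2 and HEPH had no usable signal in A2780CBN and gave 0.41 ± 0.43 and 0.34 ± 0.51 there, above 0. In 2 of the 79 sets of 4 arrays examined, 1 array lay far from the others. These were HEPH in A2780CBN, with a log2 ratio of -0.53 on that array, and ACO1 in A2780CBNDXL, with -0.22. Chance marks about 1 in 20 such sets.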

How the results depend on the processing

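With each array left out in turn, 1 to 1 members were changed in A2780CBN and 4 to 4 in A2780CBNDXL, 6 to 7 and 12 to 12 iron genes, and 2283 to 2330 and 2900 to 3189 of all genes. Normexp with loess changed background and dye correction together, and ratios were smaller over all genes. Their median size in A2780CBN was 0.33 in the main processing, 0.18 with an offset of 50 and 0.25 with an offset of 1. In A2780CBNDXL it was 0.39, 0.24 and 0.32. In A2780CBN it gave 2 iron genes and 604 of all genes with an offset of 50, and 4 and 1094 with an offset of 1. In A2780CBNDXL the offset of 50 gave 1 member, 7 iron genes and 1172 of all genes. The offset of 1 gave 4 members, 11 iron genes and 1921 of all genes there. Background-subtracted, median-centred signals gave 2186 and 2732 of all genes. With the A2780CC channel of the other arrays as denominator, 0 members and 10 iron genes were changed in A2780CBN. In a separate setting, with the usual control and both channels required to be well above background, 4 iron genes were changed in A2780CBN. At a 1.5-fold limit 3 members, 14 iron genes and 4860 of all genes were changed in A2780CBN, and 23 iron genes and 5700 of all genes in A2780CBNDXL. At a 3-fold limit 0 members, 3 iron genes and 1121 of all genes passed for A2780CBN, and for A2780CBNDXL 1 member, 5 iron genes and 1468 of all genes. The cause was not tested. No changed member reversed its sign under these alternatives. By the mean over probes SLC11A2 gave 0.35 in A2780CBNDXL and -0.12 in A2780CBN. No paired analysis was possible because each line has 1 sample. Without replicate cultures, no value here measures how the lines vary between cultures.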
